A study of Mus musculus with 12 samples.

Results

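C2C12, an immortal myoblast line derived from mouse skeletal muscle, was profiled by RNA-seq and compared between 2 culture media in the absence of acetoacetate. The 3 libraries of cells in growth medium with PBS (GM-PBS) were set against the 3 libraries of cells in differentiation medium with PBS (DM-PBS), which together are 6 of the 12 libraries of the series. PBS, given for 12 h, was the control for acetoacetate (AA), a ketone body that the other 6 libraries received in the same media so that the genes it moves in dividing and in differentiating cells could be found. The labels state the 12 h for the PBS or AA treatment, and neither the composition of the media nor the time spent in differentiation medium is given in the sources used. Every gene with enough reads was included, 12230 of the 23446 in the deposited counts.

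Myoblasts are committed muscle precursors that hold the muscle determination factors Myod1 and Myf5 and go on dividing while serum growth factors are present. When mitogens are withdrawn they leave the cell cycle, switch on Myog, the factor that starts terminal differentiation, and only later build sarcomeres and fuse into myotubes. Id proteins hold back this step by binding the E-protein partners of Myod1, and Notch signalling, in which a Delta ligand on a cell activates a receptor on the neighbouring cell, keeps part of the cells undifferentiated. C2C12 cells are immortal and grow as a pure culture on plastic, without the nerve, fibre and niche that surround a muscle stem cell in tissue.

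GM-PBS libraries held 8292006 to 8965129 reads assigned to genes and DM-PBS libraries 7959519 to 9893564. Within a group, log2 CPM (reads of a gene scaled by TMM to a common library size) correlated between libraries with a Pearson coefficient of 0.993 to 0.995 across genes, against 0.964 to 0.966 between the media. The first principal component of the 6 libraries held 79.5% of the variance and separated the media. Whether libraries of the same group stem from separate cultures is not stated in the labels, so that p-values here measure the spread between these libraries, which may be technical. CPM values below are means ± SD (n = 3) in GM-PBS and then in DM-PBS, and each log2 change is the fitted log2 fold change of DM-PBS over GM-PBS ± its SE. A gene is said to rise or fall only when its adjusted p in edgeR's quasi-likelihood test is under 0.05. RNA was taken from whole dishes, in which fewer cells with a transcript and less of that transcript per cell cannot be told apart.

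In total 3300 genes rose (27.0% of the tested genes) and 3352 fell (27.4%), together 54.4% of the tested genes. The counts of list members given below are to be read beside these shares. At least a 2-fold change was seen for 463 genes that rose (3.79%) and 415 that fell (3.39%), and at least a 4-fold change for 105 and 57. The median log2 change of all tested genes was 0.0071, and the median absolute log2 change of the called genes was 0.41. The plot of change against level for all tested genes shows both arms over the whole range of expression.

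**Figure D1:**
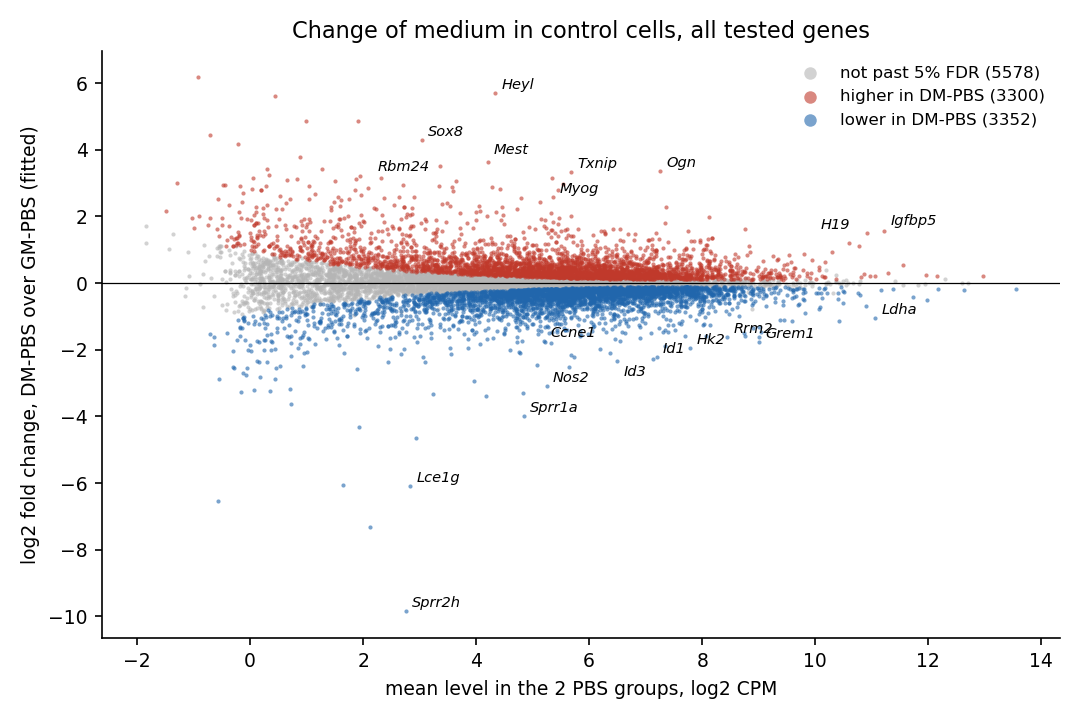
Fitted log2 fold change of DM-PBS over GM-PBS (vertical) against the mean level in the 6 libraries in log2 CPM (horizontal), 1 point per tested gene; red points rose (3300), blue points fell (3352) and grey points did not pass 5% FDR (5578). Sprr2h, the lowest point, had no read in DM-PBS, so its fitted value depends on the prior count of the model.

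Genes of at least 5 RPKM (reads per kilobase scaled to library size) in either medium were ranked by fold if their groups did not overlap. Those with Gm, Rik, clone or accession names were passed over. Among the ranked genes the largest rise was that of Heyl, a transcriptional repressor of the Notch pathway. Heyl stood at 0.797, 0.98 and 0.481 CPM in GM-PBS and 38.1, 42.3 and 38.8 CPM in DM-PBS. The 3 DM-PBS libraries were all far above the 3 GM-PBS libraries, a log2 change of 5.69 ± 0.17 (adjusted p = 3.1e-32), or 51.7-fold. Mest, an imprinted gene of mesoderm, followed at 2.77 ± 0.973 to 34 ± 3.21 CPM, although 23.1% of its exon bases are shared with a transcript on the other strand and the strand of the libraries is not given. Ogn, which encodes the matrix proteoglycan osteoglycin, rose from 27 ± 1.34 to 277 ± 15.8 CPM. Txnip, whose product inhibits thioredoxin and glucose uptake, rose from 9.18 ± 0.667 to 93 ± 6.69 CPM.
The same group held C1qtnf3, a secreted C1q and TNF related protein, at 8.21 to 72.5 CPM, Daam2, a formin-type regulator of Wnt signalling, at 10.4 to 82.1 CPM, and Cd200, which encodes a surface glycoprotein, at 10.9 to 76.2 CPM. Car3, the carbonic anhydrase of slow muscle, rose from 8.14 to 47.6 CPM, and Lrrc17, a secreted leucine-rich repeat protein, from 55.8 to 273 CPM. The pro-apoptotic gene Bmf rose from 10.9 to 59 CPM and the death-associated kinase gene Dapk2 from 3.53 to 18.8 CPM. At the other end stood small proline-rich genes of the cornified envelope, described further below. Havcr2, which encodes the immune checkpoint receptor TIM-3, fell from 32.8 ± 2 to 3.11 ± 0.318 CPM, Csf2rb, the shared beta chain of the GM-CSF, IL-3 and IL-5 receptors, fell from 84.6 ± 1.31 to 14.8 ± 0.464 CPM, and the orphan receptor gene Gpr35 fell from 57.2 ± 2.07 to 10.4 ± 2.42 CPM. Cck, which encodes the peptide hormone cholecystokinin, fell from 87 ± 2.08 to 18.7 ± 4.24 CPM and Apln, which encodes apelin, from 151 ± 15.1 to 29.9 ± 3.89 CPM. None of these 5 genes had overlapping groups, which the rule that chose the largest changes by fold required.

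The machinery of S phase was lower in differentiation medium almost throughout. Of 58 tested genes of DNA replication and nucleotide synthesis, 55 fell, 33 of them at least 2-fold, against a background of 27.4% and 3.39%, and the median log2 change was -1.05. No member rose in edgeR, none did so at an unadjusted p under 0.05, and DESeq2 and limma-voom also called 0. Cdc6, which loads the MCM helicase on origins, was at 52.5, 57.9 and 61.9 CPM in GM-PBS and 16.7, 19 and 14.4 CPM in DM-PBS. The groups did not overlap, and the gene fell by 1.78 ± 0.088 on the log2 scale (adjusted p = 1.77e-23). Mcm2, a subunit of that helicase, was at 249, 226 and 229 CPM in GM-PBS and 93.5, 85.6 and 88.2 CPM in DM-PBS. Its fall of 1.4 ± 0.052 left each DM-PBS library under every GM-PBS library. Rrm2, the limiting subunit of ribonucleotide reductase, fell from 526 ± 20.8 to 171 ± 4.19 CPM (3.08-fold lower, adjusted p = 7.4e-33). Chaf1b of the chromatin assembly factor fell by 1.77 ± 0.099, Orc1 of the origin recognition complex by 1.54 ± 0.13, Clspn, the adaptor of the replication checkpoint, by 1.45 ± 0.065, and Pcna, the sliding clamp, by 1.24 ± 0.092. The thymidine enzymes moved less: Tk1 fell by 0.78 ± 0.062 and Tyms by 0.7 ± 0.068.

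The genes that open S phase fell with it. Their list held G1 cyclins, the kinases of these and the phosphatase gene Cdc25a. Of its 9 tested members 8 fell and 0 rose, in edgeR at adjusted or unadjusted p under 0.05 and in DESeq2 and limma-voom. The median log2 change was -0.81. Ccne1, cyclin E1, was at 52.7, 56.4 and 60.5 CPM in GM-PBS and 16.6, 16.3 and 17.6 CPM in DM-PBS. Each GM-PBS library was far above any DM-PBS library. Ccne2 fell from 14.3 ± 0.989 to 2.76 ± 0.207 CPM, Ccnd2 from 115 ± 4.75 to 53.2 ± 1.69 CPM and Ccnd1, cyclin D1, from 439.7 ± 15.9 to 245 ± 7.26 CPM, a log2 change of -0.84 ± 0.047, with 23.4% of the exon bases of Ccnd1 shared with the other strand. Cdk6 was the member that did not pass, at 54.9 ± 1.84 to 55.9 ± 1.86 CPM. Among 17 E2F and DREAM-complex factors, which switch cell cycle genes on and off, 12 fell and 3 rose. E2f1, the leading activator of S phase genes, fell from 109 ± 4.21 to 41.9 ± 3.87 CPM, and Mybl2, the B-Myb partner of the mitotic programme, from 43.1 ± 0.78 to 13 ± 0.594 CPM. E2f2 rose by 0.24 ± 0.065 and E2f5 by 0.49 ± 0.11.

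Brakes of the cycle moved less and in both directions. Their list held CDK inhibitors and pocket proteins and also Btg, Gadd45 and Ccng genes. Of its 15 tested members 8 were higher and 5 lower, against 27.0% and 27.4% of all tested genes. Cdkn1a, the p21 inhibitor that Myod1 induces in differentiating myoblasts, was at 577, 563 and 567 CPM in GM-PBS and 474, 470 and 472 CPM in DM-PBS. It was lower in DM-PBS, by 0.27 ± 0.045 (adjusted p = 1.38e-06). Cdkn1c, which encodes p57, rose from 2.64 ± 0.475 to 6.04 ± 0.447 CPM, Cdkn1b, which encodes p27, from 83.5 ± 7.7 to 104 ± 1.65 CPM, and the pocket protein gene Rbl2 from 63 ± 3.03 to 83.8 ± 3.09 CPM. Rb1 rose by 0.22 ± 0.081, a call lost in DESeq2 (adjusted p = 0.0539), without DM-PBS 3 (0.19, adjusted p = 0.0687) and without GM-PBS 1 (0.12, adjusted p = 0.23), whereas Rbl1, the pocket protein of dividing cells, fell by 0.88 ± 0.067. Gadd45a rose from 22.7 ± 2.2 to 51.6 ± 4.23 CPM and Gadd45g fell from 80.4 ± 3.93 to 53.7 ± 3.27 CPM.

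Genes of mitosis were divided. Among 70 tested genes of G2 and mitosis 19 rose and 30 fell, against 27.0% and 27.4% of all tested genes, with a median log2 change of -0.091. The share that rose was near that background. Ccnb2, cyclin B2, which activates Cdk1 at the entry into mitosis, was at 28.2, 24.4 and 27.8 CPM in GM-PBS and 52.7, 55.5 and 53.6 CPM in DM-PBS. It was higher in every DM-PBS library, a log2 change of 1.01 ± 0.077 (adjusted p = 2.77e-16). Cdc20, the activator of the anaphase-promoting complex, rose from 48 ± 2.32 to 93.2 ± 6.78 CPM, Cenpa, the centromeric histone, from 32.5 ± 1.27 to 54.4 ± 2.91 CPM, and Plk1, the polo-like kinase of mitosis, from 69.4 ± 4.81 to 98.4 ± 2.28 CPM. Ccnb1 rose by 0.48 ± 0.066 and Kif2c, a microtubule depolymerase, by 0.5 ± 0.077. Lower were Cdca5, which holds sister chromatids together, at 44.9 ± 0.303 to 24.3 ± 1.5 CPM, Smc2 of condensin at 195 ± 7.66 to 116 ± 1.77 CPM, Aurkb, the kinase of the chromosomal passenger complex, at 85.3 ± 0.371 to 58.9 ± 1.89 CPM, and Cdk1 itself at 79.9 ± 3.53 to 58.8 ± 1.95 CPM. Mki67, the gene of the proliferation marker Ki-67, was at 862, 888 and 888 CPM in GM-PBS and 866, 862 and 715 CPM in DM-PBS. The groups overlapped and the difference of -0.11 ± 0.057 did not pass (adjusted p = 0.106), and neither did that of Aurka (-0.007 ± 0.07). Mki67 passed as lower without DM-PBS 1 (adjusted p = 0.0294), without DM-PBS 2 (adjusted p = 0.0365), after removal of the trend in GC content and length (adjusted p = 0.000546) and with no filter on low counts (adjusted p = 0.0264).

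Promoter windows of 4 replication and mitosis genes are shown so that the cell cycle motifs of the 2 groups can be set side by side. The windows come from RefSeq on GRCm38.p6 and were matched by symbol, whereas the reads were aligned to mm9. Capitals mark matches on either strand to the E2F motif TTTNNCGC, the cell cycle homology region (CHR) TTTGAA and the CCAAT box, and each stretch ends at the base before the annotated start. Mcm6 lies at chr1:128359706-128359855 (minus strand), Cdc6 at chr11:98908001-98908150 (plus strand), Cdk1 at chr10:69352913-69353132 (minus strand) and Ccnb2 at chr9:70421555-70421734 (minus strand).
Mcm6: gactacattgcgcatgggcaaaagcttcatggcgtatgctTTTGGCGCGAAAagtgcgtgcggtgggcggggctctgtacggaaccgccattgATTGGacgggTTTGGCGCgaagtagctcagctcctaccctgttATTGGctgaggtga
Cdc6: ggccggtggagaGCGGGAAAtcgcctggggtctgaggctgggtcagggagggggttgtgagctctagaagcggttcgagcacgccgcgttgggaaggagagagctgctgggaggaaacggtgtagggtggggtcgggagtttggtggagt
Cdk1: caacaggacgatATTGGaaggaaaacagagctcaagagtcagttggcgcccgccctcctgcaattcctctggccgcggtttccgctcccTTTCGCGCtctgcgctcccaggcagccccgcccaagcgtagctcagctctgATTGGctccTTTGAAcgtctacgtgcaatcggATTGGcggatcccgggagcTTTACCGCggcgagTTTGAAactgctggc
Ccnb2: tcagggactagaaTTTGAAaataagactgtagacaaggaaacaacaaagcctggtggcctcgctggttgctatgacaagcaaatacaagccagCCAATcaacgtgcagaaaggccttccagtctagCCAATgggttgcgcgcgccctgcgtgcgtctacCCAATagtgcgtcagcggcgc

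In Mcm6, a helicase subunit that fell by 1.08 ± 0.051, E2F matches lie 110, 106 and 47 bases before the start, the first 2 of them overlapping, and CCAAT boxes at 57 and 14 bases. Cdc6 holds a single match in the printed stretch, to E2F at 138 bases. Ccnb2 holds a CHR match at 167 bases and CCAAT boxes at 87, 54 and 21 bases, evenly spaced, and no E2F match in the printed stretch. Cdk1 holds all 3 kinds of match, with CHR at 71 and 15 bases, CCAAT boxes at 208, 80 and 48 bases and E2F at 131 and 29 bases. Over whole windows of 250 bases before to 50 after the start, the E2F motif was found in 16 of 46 replication genes with a window (34.8%) and 10 of 58 mitosis genes (17.2%), against 8.9% of the tested genes and 5.27% of all windows. The CHR motif was found in 40 of the 58 mitosis genes (69%) and 8 of the 46 replication genes (17.4%), against 11.6% and 18.1%. CCAAT boxes were found in 74.1% of mitosis genes, against 39.1% of tested genes and 37.9% of all windows. A match describes the letters of the window and is not a bound site. How many list members were already known targets of factors that bind these motifs was not counted. The motif shares here and below are therefore not independent of how the lists were chosen.

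**Figure D2:**
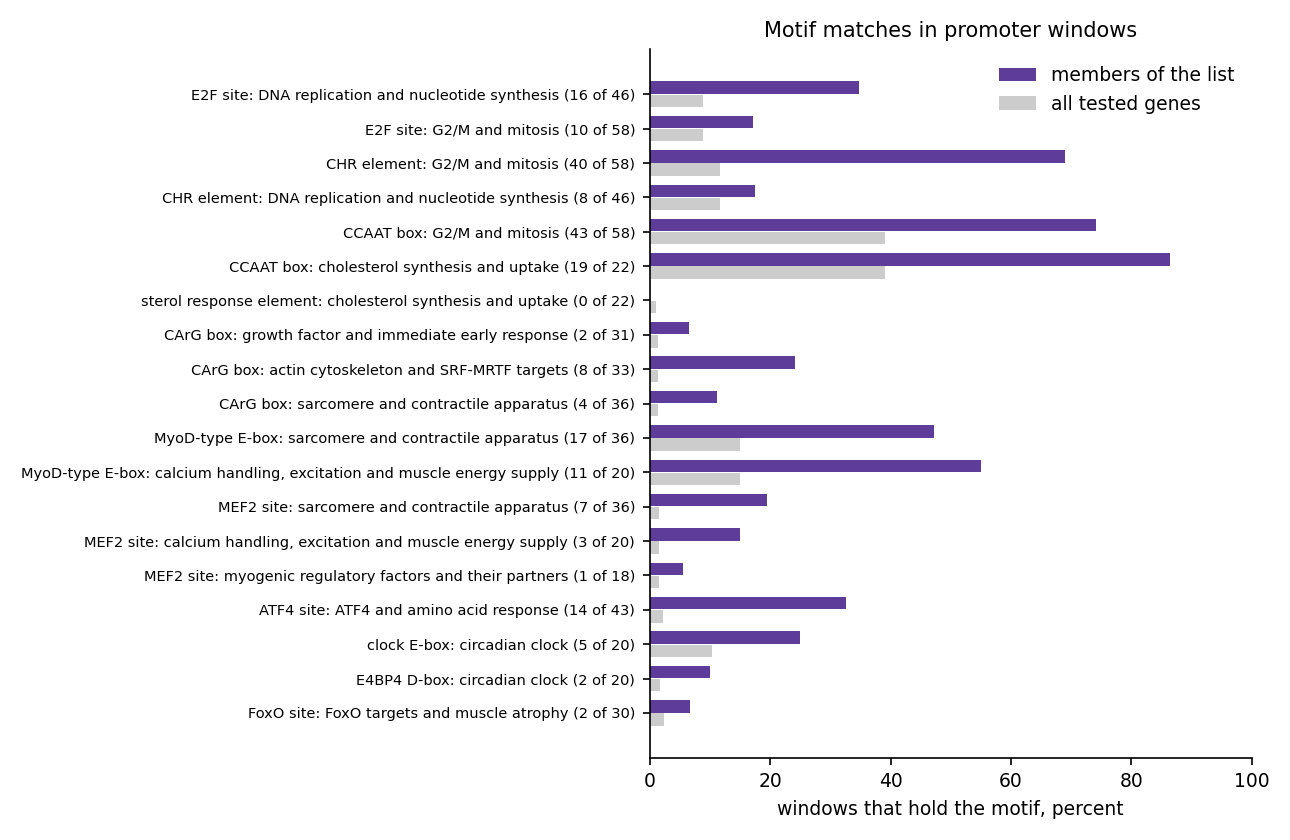
Share of promoter windows (horizontal, percent, 250 bases before to 50 after the RefSeq start) that hold a motif on either strand, for members of a list (dark bars, with the count of windows in brackets) and for all tested genes (light bars). Between the pairs of bars, the share is 86.4% against 39.1% for CCAAT boxes in cholesterol genes, 69.0% against 11.6% for CHR in mitosis genes, 55.0% against 15.0% for E-boxes in genes of calcium handling and energy supply, 32.6% against 2.19% for ATF4 sites in genes of the amino acid response, 24.2% against 1.32% for CArG boxes in actin genes and 0% against 1.04% for the sterol response element in cholesterol genes.

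Immediate early and growth factor response genes, which serum induces through ERK and actin-linked signalling, were split. Of 44 tested members 21 fell and 9 rose. Ier3, a survival gene of the early response, was at 307, 320.2 and 311 CPM in GM-PBS and 106, 94.2 and 111 CPM in DM-PBS. The DM-PBS libraries were all far below the GM-PBS libraries, and the log2 change was -1.59 ± 0.057. The AP-1 partner gene Maff fell from 116 ± 6.5 to 42 ± 2.14 CPM, the EGF receptor ligand genes Ereg and Areg from 51.8 ± 0.722 to 19.1 ± 1.41 CPM and from 15.7 ± 2.62 to 5.9 ± 0.623 CPM, and Myc from 89.4 ± 1.97 to 55 ± 5.22 CPM. Fosl1, an AP-1 subunit of dividing cells, fell from 44.2 ± 2.36 to 10.3 ± 0.67 CPM, with 57.2% of its exon bases shared with the other strand. Going the other way, Egr1, a zinc finger factor of the early response, rose from 286 ± 15.1 to 468 ± 27.9 CPM, Egr3 from 14.7 ± 2.01 to 32.5 ± 3.51 CPM, and Spry1, an inhibitor of receptor tyrosine kinase signalling that returns in quiescent satellite cells, from 3.08 ± 0.559 to 9.39 ± 1.05 CPM. Fos (8.67 ± 0.183 to 9.91 ± 1.09 CPM, adjusted p = 0.249) and Srf (97.2 ± 2.68 to 102 ± 3.65 CPM, adjusted p = 0.297) did not pass.

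Id genes were among the most reduced regulators. Id1 was at 261, 238 and 222 CPM in GM-PBS and 52.4, 49.9 and 51.9 CPM in DM-PBS. Id3 was at 232, 236 and 225 CPM in GM-PBS and 46.5, 47.4 and 48.2 CPM in DM-PBS. In both genes the DM-PBS libraries were tightly grouped far below any GM-PBS library, and the log2 changes were -2.23 ± 0.058 (adjusted p = 2.18e-34) and -2.29 ± 0.081 (adjusted p = 1.54e-15). Id2 fell from 84.1 ± 4.97 to 18.9 ± 0.942 CPM. In the whole list of Id, Twist, Snail and chromatin genes that hold back Myod1, 9 of 20 tested members were higher and 9 lower. Snai1 fell from 83.1 ± 3.38 to 55.3 ± 1.05 CPM and Ezh2, the Polycomb methyltransferase that represses muscle genes in myoblasts, from 58.5 ± 4.11 to 35.3 ± 1.65 CPM. Snai2 rose from 88.7 ± 2.01 to 130.2 ± 5.26 CPM, Zeb1 from 154 ± 8.91 to 252 ± 8.83 CPM and the class IIa deacetylase gene Hdac7 from 74.4 ± 5.22 to 126 ± 3.95 CPM. Msc, which encodes musculin, was at 4.03 ± 1.73 to 3.43 ± 1.05 CPM and did not pass.

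The muscle regulators rose on balance, 16 of 24 tested genes against 4 that fell, with a median log2 change of 0.39. Myog was at 10.2, 12.5 and 12.6 CPM in GM-PBS and 69.5, 67.6 and 73.6 CPM in DM-PBS. The groups were well apart, a log2 change of 2.58 ± 0.095 (adjusted p = 9.48e-27), or 5.96-fold. Myod1 was at 227, 232 and 217 CPM in GM-PBS and 165, 163 and 168 CPM in DM-PBS, and it was lower in each DM-PBS library, by 0.45 ± 0.049. Its relative Myf5 rose from 43.6 ± 2.61 to 58.6 ± 1.64 CPM and Pax7, the factor of satellite cells, from 22.6 ± 0.88 to 37.8 ± 2.17 CPM. The partners Mef2a (58.6 ± 2.54 to 99.6 ± 8.19 CPM) and Tcf4, an E-protein (131 ± 10.3 to 317 ± 6.44 CPM), rose. Rbm24, an RNA-binding protein of muscle splicing and Myog mRNA stability, rose from 1.67 ± 0.33 to 18.9 ± 1.9 CPM, and Smyd1, a methyltransferase of sarcomere assembly, from 3.65 ± 1.38 to 12.6 ± 1.45 CPM. Mef2c was low, at 2.03 ± 0.41 to 2.8 ± 0.273 CPM, and did not pass (adjusted p = 0.126). Rbm38, an RNA-binding protein linked to cell cycle exit, and Tead4 fell, by 0.56 ± 0.11 and 0.72 ± 0.12.

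Notch genes rose in 12 of 22 tested cases and fell in 2. Dll1, the Delta ligand of activated satellite cells, was at 3.19, 2.45 and 2.89 CPM in GM-PBS and 22.5, 19.4 and 20.7 CPM in DM-PBS. Every DM-PBS library was several times every GM-PBS library, a log2 change of 2.87 ± 0.16 (adjusted p = 1.32e-21). Of the receptors, Notch3 rose from 163 ± 8.63 to 412 ± 4.72 CPM and Notch1 from 102 ± 8.34 to 154 ± 10.2 CPM. Dtx4, a ubiquitin ligase that works on Notch, rose from 72.9 ± 3.15 to 253 ± 10.3 CPM. Of the transcriptional targets, Heyl rose as given above, while Hes1 (36 ± 2.55 to 42.3 ± 7.01 CPM, adjusted p = 0.0965) and Hey1 (6.24 ± 0.729 to 7.28 ± 0.22 CPM, adjusted p = 0.267) overlapped between the media. Hes1 passed as higher without DM-PBS 3 (adjusted p = 0.029), in the 6 PBS libraries alone (adjusted p = 0.0303) and with no filter (adjusted p = 0.0112). The ligand genes Jag1 and Jag2 did not rise: Jag1 did not pass (-0.093 ± 0.16) and Jag2 fell by 0.23 ± 0.067. Rbpj, the DNA-binding partner of cleaved Notch, fell by 0.31 ± 0.073.

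**Figure D3:**
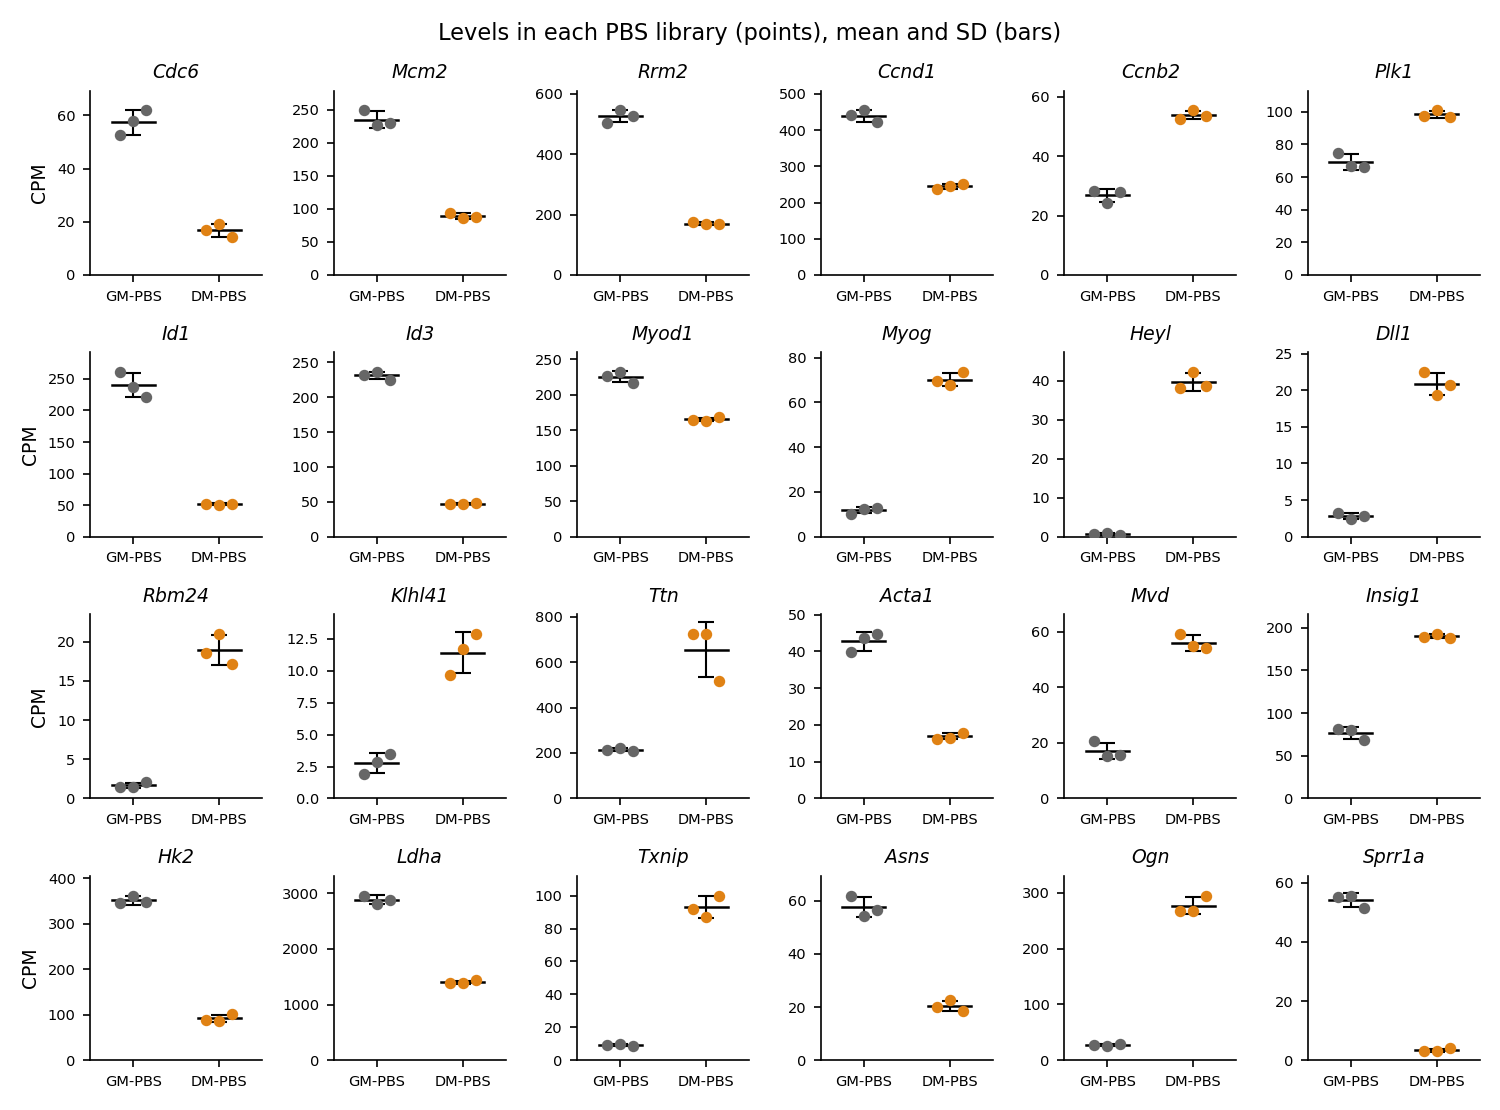
Level in CPM of 24 genes in each library (points), with the mean and SD of the 3 libraries (bars), GM-PBS in grey and DM-PBS in orange, each vertical axis from 0. For each gene shown the 3 DM-PBS points lie wholly above or wholly below the 3 GM-PBS points.

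Contractile genes changed unevenly. Of 68 genes of the sarcomere in the table, 47 had enough reads, and of these 21 rose (13 at least 2-fold) and 7 fell, with a median log2 change of 0.34. The lower count was 4 without GM-PBS 1, without GM-PBS 3 or without DM-PBS 1. Ttn, the giant scaffold of the sarcomere, was at 215, 222 and 209 CPM in GM-PBS and 725, 725 and 516 CPM in DM-PBS. All 3 DM-PBS libraries were higher, DM-PBS 3 less so than the others, and the log2 change was 1.61 ± 0.18. The kelch proteins that stabilise thin filaments, Klhl40 (2.14 ± 0.671 to 12.8 ± 1.78 CPM) and Klhl41 (2.75 ± 0.78 to 11.4 ± 1.65 CPM), the Z-disc genes Pdlim3 (14.8 ± 2.1 to 56.5 ± 3.79 CPM) and Synpo2l (19.9 ± 0.841 to 60.3 ± 4.36 CPM) and the kinase gene Mylk4 (2.5 ± 0.309 to 12 ± 0.767 CPM) rose. Actc1, cardiac alpha-actin, the form that embryonic muscle makes first, rose from 5.36 ± 0.713 to 15.8 ± 0.757 CPM, whereas Acta1, skeletal alpha-actin, fell from 42.8 ± 2.6 to 16.9 ± 0.832 CPM. These 2 coding sequences are close to identical and the handling of reads with several matches is not given, so their split is uncertain. Myh3, embryonic myosin heavy chain, fell from 9.04 ± 1.14 to 4.49 ± 0.919 CPM. Des, the intermediate filament of myoblasts, was at 1451 ± 29 to 1547 ± 16.2 CPM and did not pass, and Ckm, muscle creatine kinase, a late marker, overlapped at 1.07 ± 0.236 to 1.17 ± 0.597 CPM. Des passed as higher without GM-PBS 1 (adjusted p = 0.0429) and in 4 other settings (adjusted p = 0.0193 to 0.0437).

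Genes of calcium handling, excitation (with the neuromuscular junction) and muscle energy supply rose in 19 of 31 tested cases and fell in 4. The ryanodine receptor genes Ryr1 and Ryr3, which release calcium from the sarcoplasmic reticulum, rose from 6.29 ± 1.51 to 19.8 ± 2.02 CPM and from 14.7 ± 0.941 to 42.4 ± 4.87 CPM. Atp2a1, the fast muscle calcium pump, rose from 4.93 ± 0.803 to 9.61 ± 0.661 CPM, while Atp2a2, the pump of slow muscle and of most cells, fell from 483 ± 14.2 to 338 ± 10.2 CPM. Acetylcholine receptor subunits went up by different amounts, Chrng by 1.4 ± 0.15, Chrnb1 by 0.88 ± 0.056 and Chrna1 by 0.28 ± 0.044, and so did the agrin receptor gene Musk by 0.66 ± 0.076 and its activator Dok7 by 1.93 ± 0.27. Rapsn, which clusters the receptor, fell by 0.43 ± 0.056.

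The upstream stretches of Klhl41 and Chrna1 are shown because both genes rose and both hold the E-box CAGCTG that muscle bHLH factors bind. Capitals mark that E-box and, in Klhl41, a MEF2 site. Klhl41 lies at chr2:69669870-69670119 (plus strand) and Chrna1 at chr2:73580339-73580458 (minus strand), both from RefSeq on GRCm38.p6.
Klhl41: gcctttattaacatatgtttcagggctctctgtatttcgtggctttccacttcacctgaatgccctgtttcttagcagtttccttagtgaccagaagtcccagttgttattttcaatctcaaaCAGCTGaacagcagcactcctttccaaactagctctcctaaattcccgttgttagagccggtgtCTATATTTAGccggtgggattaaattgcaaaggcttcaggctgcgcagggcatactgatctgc
Chrna1: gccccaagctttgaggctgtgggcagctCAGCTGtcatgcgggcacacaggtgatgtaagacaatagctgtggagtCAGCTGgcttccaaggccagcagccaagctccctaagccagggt

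The E-box of Klhl41 lies 127 bases and its MEF2 site 63 bases before the start, and the 2 E-boxes of Chrna1 lie 92 and 44 bases before it. CAGCTG was found in 17 of 36 windows of sarcomere genes (47.2%), against 15% of tested genes and 16.1% of all windows. It was also in 11 of 20 windows of the list of calcium handling, excitation and energy supply (55%). MEF2 sites were found in 19.4% of the sarcomere windows, against 1.54% and 3.26%. These shares include members that rose, fell or did not pass.

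Genes of adhesion and fusion were evenly split, 19 of 46 higher and 16 lower. Tmem8c, the gene of the fusogen Myomaker, rose from 5.25 ± 1.19 to 9.16 ± 0.737 CPM, and Gm7325, the symbol in the table for the fusogen gene Myomixer, from 0.591 ± 0.194 to 5.1 ± 0.0472 CPM. Cdh15, M-cadherin, was at 156, 151 and 149 CPM in GM-PBS and 266, 265 and 283 CPM in DM-PBS. It was higher in all 3 DM-PBS libraries, by 0.84 ± 0.049. Cdon, a co-receptor that signals from cadherin contacts, rose from 287 ± 9.17 to 424 ± 14.5 CPM and Itga7, the laminin receptor of muscle, from 424 ± 12.7 to 561 ± 8.75 CPM. Neo1, a netrin receptor gene of the DCC family, fell from 322 ± 12.1 to 169.8 ± 5.63 CPM, as did Il4ra, the receptor that recruits myoblasts to myotubes, from 137 ± 10.9 to 77.8 ± 7.59 CPM, Ncam1 by 0.27 ± 0.046 and Cdh2, N-cadherin, by 0.28 ± 0.055.

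Cholesterol synthesis was the pathway with the highest median change among the lists, 0.72, with 24 of 30 tested genes higher and 4 lower. These genes answer to SREBP-2, which is released from the endoplasmic reticulum when membrane sterol is low. Mvd, which makes isopentenyl diphosphate, was at 20.5, 15.4 and 15.6 CPM in GM-PBS and 59.3, 54.9 and 54 CPM in DM-PBS. The DM-PBS libraries were all well above the GM-PBS libraries, a log2 change of 1.7 ± 0.097 (adjusted p = 1.17e-18). Pmvk, the kinase before it, rose from 22.3 ± 3.66 to 57.8 ± 3.74 CPM, Idi1, the isomerase after it, from 14.9 ± 0.418 to 36.9 ± 3.16 CPM, Fdft1, squalene synthase, from 101 ± 4.96 to 234 ± 9.14 CPM, and Lss, lanosterol synthase, from 34.1 ± 1.87 to 81.2 ± 4.93 CPM. Srebf2 itself rose from 541 ± 26 to 707 ± 16.8 CPM, and Insig1, the sterol-sensitive retention factor that SREBP-2 induces, from 77 ± 6.95 to 190.3 ± 2.31 CPM. Insig2 fell from 157 ± 3.99 to 114 ± 5.38 CPM and Scap, the escort of SREBP, by 0.17 ± 0.061, a call lost without DM-PBS 2 (-0.13, adjusted p = 0.101) and without GM-PBS 1 (-0.11, adjusted p = 0.16). Hmgcs1 is listed at 0 reads in all libraries and was not tested.

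Mvd and Idi1 are shown upstream of their starts because 19 of 22 cholesterol genes with a window hold a CCAAT box there (86.4%, against 39.1% of tested genes), the letters bound by NF-Y. Capitals mark CCAAT on either strand. Mvd lies at chr8:122443423-122443542 (minus strand) and Idi1 at chr13:8885486-8885605 (plus strand), from RefSeq on GRCm38.p6.
Mvd: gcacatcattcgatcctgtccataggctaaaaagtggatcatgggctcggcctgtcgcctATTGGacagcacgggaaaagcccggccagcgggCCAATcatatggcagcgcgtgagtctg
Idi1: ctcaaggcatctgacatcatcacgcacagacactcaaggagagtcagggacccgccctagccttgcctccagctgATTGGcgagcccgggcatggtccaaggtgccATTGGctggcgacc

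Mvd holds matches 60 and 27 bases before its start, the first on the other strand, and Idi1 holds both of its matches, at 45 and 14 bases, on the other strand. The sterol response element TCACNCCAC, searched on both strands, was in 0 of the 22 windows and in 1.04% of those of tested genes, so these exact letters are not in the windows searched.

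Genes of fatty acid and phospholipid synthesis rose in 22 of 45 cases and fell in 9. Fasn, fatty acid synthase, was at 679, 592 and 625 CPM in GM-PBS and 1206, 1179 and 1076 CPM in DM-PBS. The groups did not overlap, and the log2 change was 0.87 ± 0.05. The desaturase genes Scd1 and Scd2 rose from 753 ± 21.6 to 1226 ± 31.9 CPM and from 2427 ± 32.8 to 3559 ± 87.6 CPM, the elongase gene Elovl6 from 138 ± 3.79 to 270.3 ± 17.7 CPM, the acyl-CoA synthetase gene Acsl3 from 122 ± 8.21 to 239 ± 2.18 CPM and Lpin1, a phosphatidate phosphatase, from 17.4 ± 0.815 to 35.9 ± 1.68 CPM. Srebf1 was at 161 ± 9.23 to 167 ± 4.04 CPM and did not pass. Plin4, a lipid droplet protein, fell from 26.7 ± 3.97 to 12.6 ± 1.24 CPM. Of 13 LXR target and efflux genes 8 rose and 1 fell, among them the sterol exporter genes Abca1 (3.9 ± 0.972 to 8.02 ± 1.43 CPM) and Abcg1 (2.27 ± 0.588 to 8.03 ± 0.627 CPM). The higher count was 4 without DM-PBS 1 or without GM-PBS 3, and the lower count was 2 without DM-PBS 2.

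Genes of glucose use and the hypoxia response fell together. Of 48 tested genes 36 fell (18 at least 2-fold) and 5 rose (3 without DM-PBS 1), with a median log2 change of -0.72. Hk2, the inducible hexokinase, was at 345, 362 and 347 CPM in GM-PBS and 87.7, 87.1 and 100.5 CPM in DM-PBS. The DM-PBS libraries were all far below the GM-PBS libraries, a log2 change of -1.94 ± 0.051 (adjusted p = 2.18e-34). Ldha, lactate dehydrogenase A, was at 2962, 2802 and 2889 CPM in GM-PBS and 1386, 1393 and 1435 CPM in DM-PBS. It fell by 1.04 ± 0.044 on the log2 scale, with every DM-PBS library under every GM-PBS library. Slc2a1, the glucose transporter GLUT1, fell from 775 ± 36.2 to 282 ± 7.82 CPM, Pfkfb3, which drives glycolytic flux, from 62.2 ± 4.81 to 17.9 ± 2.96 CPM, Pdk1, which closes pyruvate entry into mitochondria, from 364 ± 13.1 to 152 ± 4.88 CPM, and Slc16a3, the lactate exporter MCT4, from 268 ± 2.84 to 117 ± 1.06 CPM. Hypoxia targets outside glycolysis moved the same way, Adm, adrenomedullin, by -2.38 ± 0.21, Higd1a by -2.06 ± 0.1, the mitophagy receptor gene Bnip3 by -1.49 ± 0.13 and Vegfa by -1 ± 0.049. The largest fall of this list was that of Car12, a membrane carbonic anhydrase, at 26.3, 28.5 and 27.6 CPM in GM-PBS and 3.16, 1.48 and 6.15 CPM in DM-PBS. DM-PBS 3 stood at 6.15 CPM, well above the other DM-PBS libraries and still far below GM-PBS. Txnip, at 9.45, 9.68 and 8.42 CPM in GM-PBS and 92, 86.8 and 100.1 CPM in DM-PBS, went the other way by 3.34 ± 0.092 (adjusted p = 1.36e-33), and 19.4% of its exon bases are shared with the other strand. Pdk2 rose from 9.37 ± 0.882 to 17.6 ± 0.996 CPM and Ldhb, the heart form of lactate dehydrogenase, from 6.76 ± 0.687 to 9.87 ± 0.921 CPM.

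Mitochondrial genes had a median change near 0. Of 66 genes of the TCA cycle and respiratory chain 19 rose and 10 fell (6 without DM-PBS 1), with a median log2 change of 0.021. The share that rose was near the 27.0% of all tested genes. Idh1, the cytosolic isocitrate dehydrogenase that yields NADPH, rose from 149 ± 3.58 to 347 ± 17 CPM, a member of the list that acts outside the mitochondrion. Pdha1 rose by 0.42 ± 0.046 and Idh2 by 0.4 ± 0.052, and Idh3a fell by 0.59 ± 0.059. Citrate synthase, Cs (569 ± 10.8 to 556 ± 11 CPM), and Sdha (209 ± 3.12 to 217 ± 4.27 CPM) did not pass. Of 34 fatty acid oxidation and PPAR target genes 18 rose and 5 fell. The acyl-CoA dehydrogenase genes Acadm and Acads rose by 0.58 ± 0.066 and 0.62 ± 0.072, Ucp2 by 1.03 ± 0.074 and Pdk4 by 0.65 ± 0.074, while Pparg fell from 10.7 ± 0.65 to 5.06 ± 0.745 CPM. Ketone body enzymes and monocarboxylate transporters, 11 genes, held 3 that rose and 4 that fell, the share that rose being near that of all tested genes. Oxct1, the enzyme that activates acetoacetate for oxidation, was at 262, 267 and 277 CPM in GM-PBS and 228, 238 and 252 CPM in DM-PBS, a small fall of 0.17 ± 0.049 (adjusted p = 0.00309), and Aacs, which activates acetoacetate in the cytosol for lipid synthesis, rose from 75.7 ± 4.57 to 118 ± 3.19 CPM. Slc16a1, the transporter MCT1, fell by 0.42 ± 0.045.

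Genes of the amino acid response, which ATF4 switches on when amino acids run short or protein is misfolded, were lower in 39 of 52 tested cases and higher in 5, with a median log2 change of -0.48. Aldh1l2, a mitochondrial enzyme of folate metabolism, fell from 134 ± 5.94 to 31.3 ± 1.23 CPM. Asns, asparagine synthetase, was at 62, 54.4 and 56.7 CPM in GM-PBS and 20.1, 22.6 and 18.5 CPM in DM-PBS. The groups did not overlap, and the log2 change was -1.5 ± 0.085 (adjusted p = 4.33e-21). The serine pathway genes Phgdh and Psat1 fell by 0.75 ± 0.064 and 0.63 ± 0.049, Mthfd1l by 1.28 ± 0.062, Trib3 by 1.24 ± 0.15 and Ddit3, which encodes CHOP, by 0.62 ± 0.094. The mRNA of Atf4, a factor regulated mostly in translation, was at 269, 281 and 265 CPM in GM-PBS and 278, 277 and 267 CPM in DM-PBS. The media overlapped (0.015 ± 0.048, adjusted p = 0.815). Nupr1 rose from 39.3 ± 4.82 to 59.6 ± 3.95 CPM and Gpt2 from 35.1 ± 2.57 to 50 ± 1.8 CPM.

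The stretch upstream of Asns is shown for its match to the ATF4 motif TGATGNAA, in capitals, 23 bases before the annotated start. It lies at chr6:7693210-7693329 (minus strand), from RefSeq on GRCm38.p6.
Asns: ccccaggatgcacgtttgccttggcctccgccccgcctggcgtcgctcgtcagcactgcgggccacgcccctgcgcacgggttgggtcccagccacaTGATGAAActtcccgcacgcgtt

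TGATGNAA was found in 14 of 43 windows of the list (32.6%), against 2.19% of tested genes and 4.06% of all windows. Some members entered the list as known ATF4 targets, so this share is not independent of how the list was chosen.

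Of 63 genes of ribosome biogenesis and the Myc network 39 fell and 7 rose, with a median log2 change of -0.27. Nop56, a core protein of small nucleolar particles, fell by 0.89 ± 0.072, Srm, spermidine synthase, by 0.87 ± 0.07, Nolc1 by 0.73 ± 0.058 and Ncl, nucleolin, by 0.28 ± 0.043. Mycl, a Myc paralog, rose from 15 ± 1.22 to 64.9 ± 3.28 CPM and Mxd4, which competes with Myc for Max, from 21.9 ± 1.37 to 62 ± 4.17 CPM. Endoplasmic reticulum chaperones fell in 17 of 32 cases and rose in 5, with Hspa5, which encodes BiP, down by 0.4 ± 0.043 and P4hb, protein disulfide isomerase, by 0.61 ± 0.045. Cytosolic heat shock genes fell in 14 of 32 cases and rose in 8, the share that rose being near that of all tested genes. Hspd1 fell by 0.63 ± 0.049 and Hsp90aa1 by 0.6 ± 0.049, Hsp90ab1 rose by 0.24 ± 0.042, and Hspa8 was at 568 ± 29.8 to 569.7 ± 22.1 CPM and did not pass. Proteasome and ubiquitin genes were near the background, 10 of 40 higher and 8 lower.

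Insulin-like growth factor signalling rose in 18 of 34 tested genes and fell in 4. Igfbp5, the binding protein that myoblasts secrete early in differentiation, was at 1185, 1231 and 1216 CPM in GM-PBS and 3594, 3601 and 3469.5 CPM in DM-PBS. Every DM-PBS library was far above any GM-PBS library, a log2 change of 1.55 ± 0.046 (adjusted p = 9.07e-33). Igfbp4 rose from 37.2 ± 1.97 to 110 ± 6.11 CPM, Igf1 from 0.281 ± 0.145 to 2.16 ± 0.277 CPM and the docking protein gene Irs1 from 317 ± 1.58 to 569 ± 16.5 CPM. Igf2, the autocrine factor of C2C12 differentiation, rose from 3.97 ± 1.01 to 6.8 ± 0.52 CPM, and 62.8% of its exon bases are shared with another gene on its own strand. Igf1r did not pass (-0.059 ± 0.048), except as lower after removal of the GC and length trend (adjusted p = 0.0386). Sestrin genes, which restrain mTORC1, were split, with Sesn1 at 41.6 ± 3.46 to 129 ± 8.94 CPM and Sesn3 at 8.71 ± 0.895 to 35.7 ± 3.34 CPM higher and Sesn2 lower by 0.43 ± 0.094. Among 35 genes of FoxO factors, their targets and atrophy 18 rose and 10 fell, the share that fell being near that of all tested genes. Fbxo32, the ubiquitin ligase atrogin-1, rose from 239 ± 13.1 to 303 ± 8.71 CPM, and Trim63, MuRF1, was at 0.235 ± 0.11 to 0.507 ± 0.318 CPM and did not pass.

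Genes of the lysosome and of autophagy, counted as 1 list, fell in 31 of 54 tested cases and rose in 12. The hydrolase genes Gla and Ctsb fell by 1.29 ± 0.081 and 0.79 ± 0.044, and the membrane protein gene Lamp1 by 0.48 ± 0.044. Of the autophagosome genes on the same list, Map1lc3a rose by 0.82 ± 0.07, Gabarapl1 by 0.53 ± 0.048 and Atg14 by 0.73 ± 0.096, and Gabarap fell by 0.22 ± 0.047. Of 19 metallothionein and iron genes 9 fell and 6 rose, the share that rose being near that of all tested genes. Mt1, a zinc-binding metallothionein, was at 1956, 2089 and 1629.8 CPM in GM-PBS and 825, 849 and 902 CPM in DM-PBS. The spread was wide in GM-PBS, and all 3 DM-PBS libraries were lower, by 1.14 ± 0.13. Tfrc, the transferrin receptor, fell from 387 ± 9.64 to 215 ± 4.66 CPM and Slc40a1, the iron exporter ferroportin, rose from 7.48 ± 0.98 to 36.2 ± 2.51 CPM. In the NRF2 and glutathione list 9 of 42 rose and 13 fell, against 27.0% and 27.4% of all tested genes. Hmox1, heme oxygenase, was down by 1.07 ± 0.064, Nqo1 down by 0.82 ± 0.066 and the peroxidase gene Gpx1 up by 0.82 ± 0.048. The p53 list was balanced, 14 up and 14 down of 43, against 27.0% and 27.4% of all tested genes. In it Mdm2 was lower by 0.7 ± 0.053, Trp53inp1 higher by 0.66 ± 0.062 and Trp53 itself not past (0.051 ± 0.049). Polyamine and proline genes fell in 7 of 17 cases and rose in 2, with Odc1, the first enzyme of polyamine synthesis, down by 0.51 ± 0.079 and the antizyme gene Oaz1 up by 0.56 ± 0.086.

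Matrix genes were remodelled rather than uniformly raised or lowered. Of 64 structural genes 32 rose (12 at least 2-fold) and 21 fell. Col3a1, type III collagen, was at 884, 952 and 963 CPM in GM-PBS and 2096, 2153 and 2243 CPM in DM-PBS. All DM-PBS libraries were above all GM-PBS libraries, by 1.21 ± 0.047. Col1a1 rose by 0.58 ± 0.05, Col1a2 by 0.63 ± 0.045, Nid2, nidogen of the basement membrane, by 1.34 ± 0.053, and Thbs1, thrombospondin, from 1105 ± 22.4 to 2402 ± 40.6 CPM. The small proteoglycan genes Ogn and Prelp rose, the latter from 2.27 ± 0.508 to 10.9 ± 0.253 CPM. Fbln2, fibulin, fell from 686 ± 17.2 to 268 ± 7.96 CPM, Has2, hyaluronan synthase, from 147 ± 7.99 to 51.7 ± 0.979 CPM, Lox, the collagen cross-linking enzyme, from 2352 ± 105 to 1461 ± 28.1 CPM and Fn1, fibronectin, by 0.17 ± 0.045. Proteases and their inhibitors were balanced, 14 higher and 14 lower of 45, both shares near the 27.0% and 27.4% of all tested genes. Serpinb2, an inhibitor of plasminogen activators, was at 46.4, 51.8 and 56 CPM in GM-PBS and 5.09, 6.04 and 4.65 CPM in DM-PBS. All 3 DM-PBS libraries were far lower, and it fell by 3.29 ± 0.11 (adjusted p = 9.68e-30). The metalloproteinase inhibitor genes Timp1 and Timp3 fell by 1.59 ± 0.048 and 1.5 ± 0.047, and the gelatinase genes Mmp2 and Mmp9 rose by 0.98 ± 0.054 and 2.21 ± 0.21.

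In TGF-beta, BMP and activin signalling 17 of 47 genes rose and 19 fell, 9 of them at least 2-fold. Grem1, a secreted BMP antagonist, was at 859, 753 and 761 CPM in GM-PBS and 246, 232 and 225 CPM in DM-PBS. The groups were far apart, a log2 change of -1.76 ± 0.049. Inhba, activin A, fell from 177 ± 13.3 to 76.6 ± 6.14 CPM and Smad7, the feedback inhibitor, from 56.5 ± 3.34 to 26 ± 1.58 CPM. Tgfb2 rose from 13.4 ± 1.3 to 35.3 ± 0.943 CPM, Tgfb3 from 91.9 ± 7.01 to 138 ± 3.35 CPM and Smad3 from 138 ± 1.76 to 281 ± 3.66 CPM. Tgfb1 did not pass (-0.024 ± 0.052). Wnt pathway genes rose in 22 of 48 cases and fell in 10. Wnt10a rose from 55.9 ± 6.36 to 122 ± 4.84 CPM, the receptor gene Fzd1 from 173 ± 6.96 to 353 ± 7.77 CPM, the secreted inhibitor gene Dkk3 from 3.58 ± 0.805 to 13.6 ± 0.829 CPM and Lef1, a nuclear effector, from 13.9 ± 1.4 to 24.6 ± 2.04 CPM. Lgr6, a receptor for R-spondin, fell from 38.7 ± 3.77 to 9.56 ± 1.68 CPM, Wnt4 from 9.23 ± 1.43 to 3.17 ± 0.465 CPM and Lrp5 by 0.73 ± 0.053. Axin2, a common target of the pathway, was at 4 ± 0.594 to 5.5 ± 0.686 CPM and did not pass (adjusted p = 0.0584), but passed as higher without DM-PBS 1 (adjusted p = 0.0396) or GM-PBS 2 (adjusted p = 0.0388) and in 4 other settings (adjusted p = 0.0378 to 0.0486). Hedgehog genes rose in 4 of 9 cases, with the co-receptor gene Gas1 up by 1.1 ± 0.098, and fell in 1.

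The YAP and TEAD list joins target genes with the factors and kinases themselves, such as Yap1, the Tead genes and Lats1. Of its 24 tested genes 7 rose and 9 fell, against 27.0% and 27.4% of all tested genes. Ctgf, the best known target, was at 648, 649.8 and 663 CPM in GM-PBS and 213, 208 and 230.2 CPM in DM-PBS. All DM-PBS libraries were far below the GM-PBS libraries, a log2 change of -1.59 ± 0.052, with 23.2% of its exon bases shared with the other strand. Ankrd1 fell by 0.77 ± 0.051 and Cyr61 by 0.41 ± 0.047, while the angiomotin gene Amotl1 rose by 0.44 ± 0.043. Of 39 actin cytoskeleton and SRF target genes 13 rose and 12 fell, both shares near that background. Zyx, zyxin of focal adhesions, rose from 856 ± 31.8 to 1647 ± 58.6 CPM and Myl9, a regulatory myosin light chain, from 96 ± 9.2 to 186 ± 8.67 CPM. Acta2, smooth muscle alpha-actin, rose by 0.18 ± 0.044. Tagln2 fell by 0.5 ± 0.044.

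Growth factor ligand and receptor genes fell in 32 of 65 tested cases and rose in 16. The share that rose was near the 27.0% of all tested genes. Among receptors, Fgfr4, which marks muscle precursors, rose from 2.38 ± 0.444 to 18 ± 1.68 CPM, Pdgfra and Pdgfrb rose by 0.97 ± 0.069 and 0.88 ± 0.046, and Fgfr1 fell by 0.49 ± 0.045. Among ligands, Hgf, which activates satellite cells, fell by 0.42 ± 0.082 and Pdgfa by 0.59 ± 0.078, and the neurotrophin receptor gene Ngfr fell from 30.1 ± 2.63 to 11.1 ± 2.26 CPM. Met, the receptor of Hgf, did not pass (-0.1 ± 0.048), but did so without DM-PBS 1 (adjusted p = 0.0453), without GM-PBS 1 (adjusted p = 0.04) and after removal of the GC and length trend (adjusted p = 0.00925). Chemokine, cytokine and NF-kB genes fell in 27 of 70 cases and rose in 19, the share that rose being near that of all tested genes. Nos2, inducible nitric oxide synthase, was at 53.9, 76.3 and 73.8 CPM in GM-PBS and 8.65, 5.55 and 9.8 CPM in DM-PBS. All 3 GM-PBS libraries were many times any DM-PBS library, a log2 change of -3.08 ± 0.17. Ptgs2, cyclooxygenase 2, fell from 140.3 ± 5.18 to 50.3 ± 1.28 CPM, Cebpd from 93.2 ± 2.11 to 32.4 ± 1.6 CPM and Cxcl5 from 311 ± 20.3 to 214 ± 25.7 CPM. Ccl9 rose from 0.906 ± 0.212 to 5.2 ± 1.21 CPM and Il18 from 1.64 ± 0.531 to 5.21 ± 1.65 CPM.

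Interferon response genes rose in 26 of 43 tested cases and fell in 4 (2 without DM-PBS 1 or without GM-PBS 1), with a median log2 change of 0.3. Most were low. Oasl2, an oligoadenylate synthetase relative, rose from 3.78 ± 0.767 to 10.2 ± 1.29 CPM, Parp14 from 7.22 ± 0.572 to 17.2 ± 1.19 CPM, Gbp2, a guanylate-binding protein, from 3.72 ± 0.514 to 8.23 ± 0.896 CPM, Ddx58, the RNA sensor RIG-I, from 25.5 ± 0.407 to 43.4 ± 4.67 CPM and Irf1 from 51.8 ± 1.65 to 72 ± 3.08 CPM. Isg15 overlapped between the media, at 1.95 ± 0.546 to 2.46 ± 0.932 CPM. B2m, the light chain of MHC class I, fell by 0.33 ± 0.054.

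Of 25 clock genes 11 rose and 7 fell, against 27.0% and 27.4% of all tested genes, so that the share that fell was near the background. Per2, a repressor of the clock, was at 5.01, 4.66 and 4.69 CPM in GM-PBS and 15.6, 18.1 and 17.8 CPM in DM-PBS. The groups did not overlap, and the log2 change was 1.83 ± 0.14 (adjusted p = 1.52e-16). Per3 rose from 25.4 ± 1.39 to 59.8 ± 1.95 CPM, and the output factor genes Tef and Dbp rose from 86 ± 2.43 to 191 ± 8.61 CPM and from 3.77 ± 0.555 to 9.33 ± 0.901 CPM. The activator genes Arntl and Clock fell by 0.44 ± 0.11 and 0.38 ± 0.05, and Nfil3, which opposes Dbp and Tef at their sites, by 0.88 ± 0.072. Cry1 did not pass (0.14 ± 0.14). Glucocorticoid-responsive genes rose in 6 of 17 cases and fell in 9. Tsc22d3, which encodes GILZ, rose by 0.6 ± 0.065 and Glul, glutamine synthetase, by 0.96 ± 0.054, and Fkbp5 fell by 0.63 ± 0.067.

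Retinoid and thyroid hormone genes rose in 11 of 16 cases and fell in 2, a lower count that was 1 without any 1 of the 6 libraries. Stra6, the receptor that takes up retinol, was at 0.683, 0.735 and 0.842 CPM in GM-PBS and 7.53, 7.03 and 6.4 CPM in DM-PBS. It was under 1 CPM in GM-PBS and far higher in each DM-PBS library, a log2 change of 3.2 ± 0.26. Rdh5, a retinol dehydrogenase, rose from 6.35 ± 0.676 to 22.2 ± 1.6 CPM, and Tgm2, a retinoid-induced transglutaminase, from 15.8 ± 1.88 to 58.9 ± 3.1 CPM, while Aldh1a3, which makes retinoic acid, fell from 5.99 ± 0.92 to 2.25 ± 0.774 CPM.

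Of 20 tested imprinted growth genes 12 rose and 0 fell in edgeR, DESeq2 and limma-voom, with 1 lower at an unadjusted p under 0.05, and 1 fell without DM-PBS 1. H19, a long non-coding RNA of embryonic muscle, was at 973, 1023 and 1031 CPM in GM-PBS and 2792, 2862 and 2889 CPM in DM-PBS. All 3 DM-PBS libraries were far above the GM-PBS libraries, a log2 change of 1.5 ± 0.091 (adjusted p = 7.38e-08). Peg3, a zinc finger gene, rose from 529 ± 24.1 to 953 ± 86.7 CPM, Peg10, a retrotransposon-derived gene, from 78.1 ± 3.91 to 161 ± 5.01 CPM and Zim1 from 20.3 ± 2.59 to 60.4 ± 7.82 CPM. Plagl1, a regulator of the imprinted network, was at 1.71 ± 0.614 to 1.11 ± 0.217 CPM and did not pass.

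Axon guidance and Eph-ephrin genes, which also steer migrating muscle precursors, rose in 30 of 53 cases and fell in 9. Sema6a rose from 41.2 ± 1.46 to 114 ± 9.62 CPM, Sema3d from 26.7 ± 2.15 to 72.3 ± 3.15 CPM, Sema3c from 16.2 ± 1.17 to 41.6 ± 4.05 CPM, the netrin receptor gene Unc5c from 14.8 ± 1.29 to 36.7 ± 4.62 CPM and Epha1 from 18.1 ± 1.44 to 70.3 ± 4.21 CPM. Sema4f fell from 22.1 ± 1.99 to 6.95 ± 0.469 CPM and Epha2 by 0.45 ± 0.05.

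Several genes of the cornified envelope, the protein shell of skin keratinocytes, were present at low levels in growth medium and had few or no reads in differentiation medium. Sprr2h had 122, 112 and 106 reads in GM-PBS and 0 in each DM-PBS library, at least 113-fold lower when the 3 DM-PBS libraries together are set at a floor of 3 reads. Sprr2b had 11, 13 and 10 reads against 0, at least 11.3-fold lower by the same floor. Sprr2e had 217 reads in GM-PBS and 1 in DM-PBS, a ratio of 222-fold with an exact 95% interval from 39.5 to 8827 that covers counting error only. The Sprr2 genes are near-identical copies, so the split of reads between them is uncertain. Sprr1a was at 55.2, 55.7 and 51.4 CPM in GM-PBS and 3.16, 2.96 and 4.02 CPM in DM-PBS, and it fell by 4 ± 0.12, with no overlap. Lce1g fell from 14.1 ± 1.38 to 0.193 ± 0.189 CPM and Krt19, a keratin of simple epithelia, from 85.7 ± 1.72 to 28.7 ± 1.73 CPM. Of 58 genes on this list, 27 had no read in the 6 libraries, 11 were tested, 8 fell and 1 rose (2 when any 1 library other than DM-PBS 2 was left out), namely Jup, plakoglobin of cell junctions, by 1.29 ± 0.049. The median log2 change was -1.58, also with the genes at 0 reads set at their bound. Of the epithelial markers, Cdh1, E-cadherin, had 3, 7 and 2 reads in GM-PBS and 3, 6 and 5 in DM-PBS, and Epcam had 1 read in the 6 libraries. The list of epithelial markers summed to 100.1 to 102 CPM in GM-PBS and 42.9 to 47.7 CPM in DM-PBS, Krt19 making up the most. Of its 3 tested members 1 fell, Krt19, and 2 did not pass. The part of such cells in the result was not tested. The genes with no read in growth medium and most reads in differentiation medium were few and low. Fam107a had 8, 9 and 10 reads in DM-PBS, at least 9-fold higher over the floor of 3 reads in the group.

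Over 370 tested transcription factors 128 rose and 110 fell, against 27.0% and 27.4% of all tested genes. At least 2-fold changes were seen for 19 and 25, against 3.79% and 3.39%. The share that fell was near the background. Sox8, which marks satellite cells, was at 1.14, 0.613 and 0.602 CPM in GM-PBS and 14.9, 17.4 and 14.7 CPM in DM-PBS. Every DM-PBS library was far above every GM-PBS library, a log2 change of 4.28 ± 0.22 (adjusted p = 3.51e-23). Maf rose from 18 ± 3.06 to 64.6 ± 1.56 CPM and the homeobox gene Pitx3 from 3.43 ± 0.845 to 10.8 ± 0.307 CPM. Tcf19, a factor of S phase entry, fell from 117 ± 1.73 to 29.9 ± 1.19 CPM, Hivep3 from 26.3 ± 1.69 to 7.37 ± 0.806 CPM, Dlx1 from 8.48 ± 0.878 to 2.69 ± 0.312 CPM and Aebp1 from 909.9 ± 47.5 to 419.8 ± 3.32 CPM.

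The labelled cell type was checked against its markers. Of 15 tested myoblast markers 9 rose and 3 fell, against 27.0% and 27.4% of all tested genes. Des, Myod1, Cdh15, Itga7 and Ncam1 were well above the detection limit in both media. The myoblast list summed to 3446 to 3493 CPM in GM-PBS and 3691 to 3706 CPM in DM-PBS. Of the markers of other cell types, those with enough reads to be tested were 4 of 12 for adipocytes, 2 of 12 for heart, 3 of 13 for epithelium, 1 of 13 for immune cells, 1 of 11 for endothelium, 6 of 13 for neurons and glia, 6 of 16 for bone and cartilage and 9 of 11 for smooth muscle. Immune markers summed to 3.8 to 5.17 CPM in GM-PBS and 2.96 to 4.52 CPM in DM-PBS and endothelial markers to 1.59 to 2.96 CPM in GM-PBS and 1.23 to 3.01 CPM in DM-PBS, with 5 and 3 members at 0 reads. Fat cell markers summed to 33.3 to 41.5 CPM in GM-PBS and 47.6 to 55.7 CPM in DM-PBS, with 2 of the tested members higher and 1 lower. Of the tested bone and cartilage markers 2 were higher and 3 lower, of which Spp1, osteopontin, was abundant in both media (4907 ± 120.4 to 4367 ± 179.5 CPM), and Dmp1, a matrix protein of osteocytes, rose from 0.24 ± 0.124 to 7.28 ± 0.657 CPM. Of the tested smooth muscle markers 4 were higher and 1 lower. Their list was abundant, with sums of 3791 to 4016 CPM in GM-PBS and 4097 to 4169 CPM in DM-PBS, above those of the myoblast list. Of the cardiac genes tested 1 fell, Gata4 by 0.31 ± 0.084 (2 fell without DM-PBS 1 or without GM-PBS 1). The neural list held 2 that rose, such as Map2 by 1.17 ± 0.14, and 2 that fell, Ngfr and Tubb3. It summed to 577 to 615 CPM in GM-PBS and 551 to 568 CPM in DM-PBS. The part that changes in such cells might play in any result above was not tested.

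Genes used as controls in other assays were not all level. Of 17 tested 8 fell and 3 rose. Pgk1 fell by 0.85 ± 0.068, Tfrc by 0.85 ± 0.044, Hprt by 0.45 ± 0.073 and Actb by 0.21 ± 0.045. Ywhaz (-0.063 ± 0.043) and Sdha (0.055 ± 0.047) did not pass. Gapdh and Ppia are listed at 0 reads in every library and gave no value. By reads per length, Eef1a1, the translation elongation factor, and Actb were both abundant, Eef1a1 at 2633 and 3099 RPKM and Actb at 2298 and 2021 RPKM in GM-PBS and DM-PBS. Eef1a1 ranked first in each medium, ahead of S100a4 (2504 and 2939.7 RPKM), of whose exon bases 51.7% are shared with another gene on its strand, and Vim, vimentin, stood at 2154 and 2183 RPKM.

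**Figure D4:**
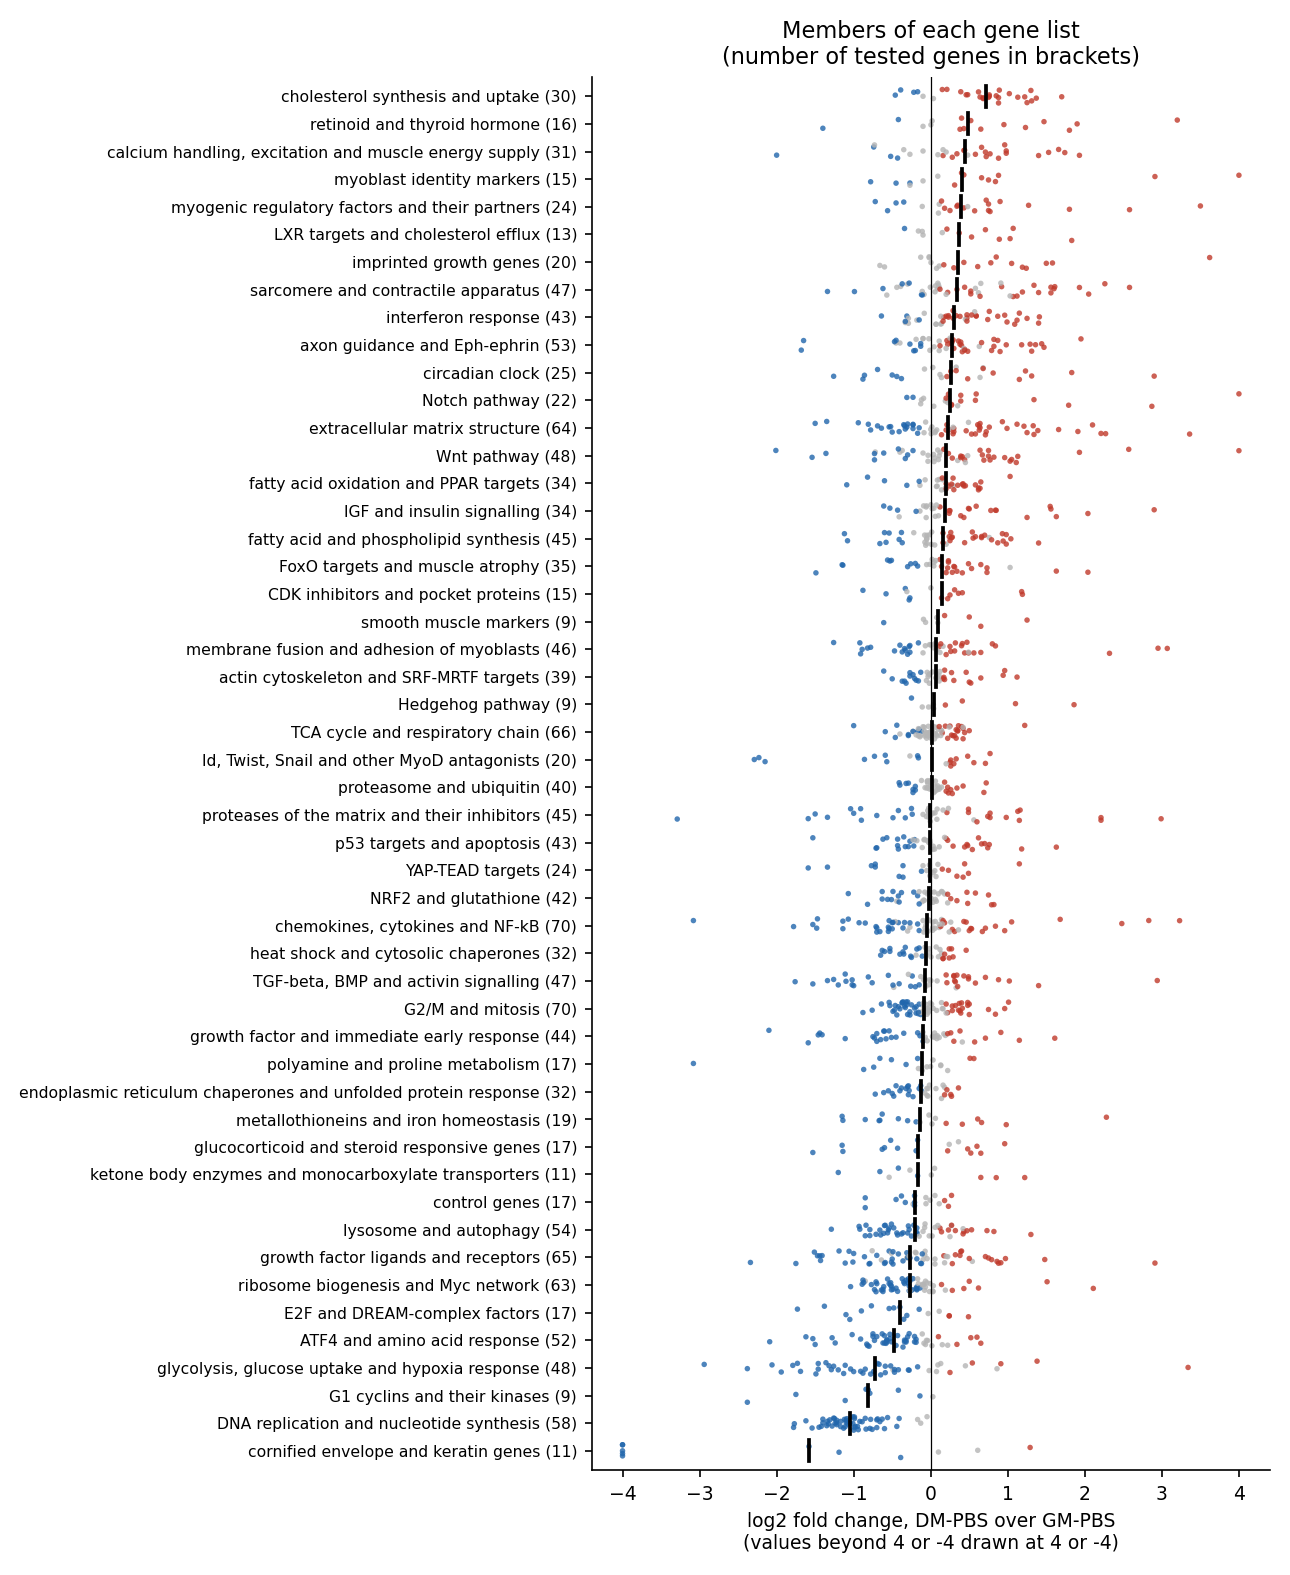
Fitted log2 fold change of DM-PBS over GM-PBS (horizontal) of the tested members of each list of at least 9 tested genes other than transcription factors, 1 point per gene, red for genes that rose, blue for genes that fell and grey for genes that did not pass; black bars are medians. The medians run from -1.58 for cornified envelope genes and -1.05 for replication to 0.72 for cholesterol synthesis.

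The same change of medium was measured in the 6 libraries that received AA, which share no library with the 6 above. Of the 6652 genes called with PBS, 5093 (76.6%) were called in the same direction with AA, which is 79.5% of the 6406 genes called with AA, and 46 were called in the opposite direction. The log2 changes of the 2 pairs correlated across genes with a Pearson coefficient of 0.885, a description over genes that are not independent. Of the 878 genes with at least a 2-fold change with PBS, 786 were called in the same direction with AA. A test of the difference between the 2 effects called 688 genes (5.63%), 352 with the higher value with PBS and 336 with the higher value with AA.

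**Figure D5:**
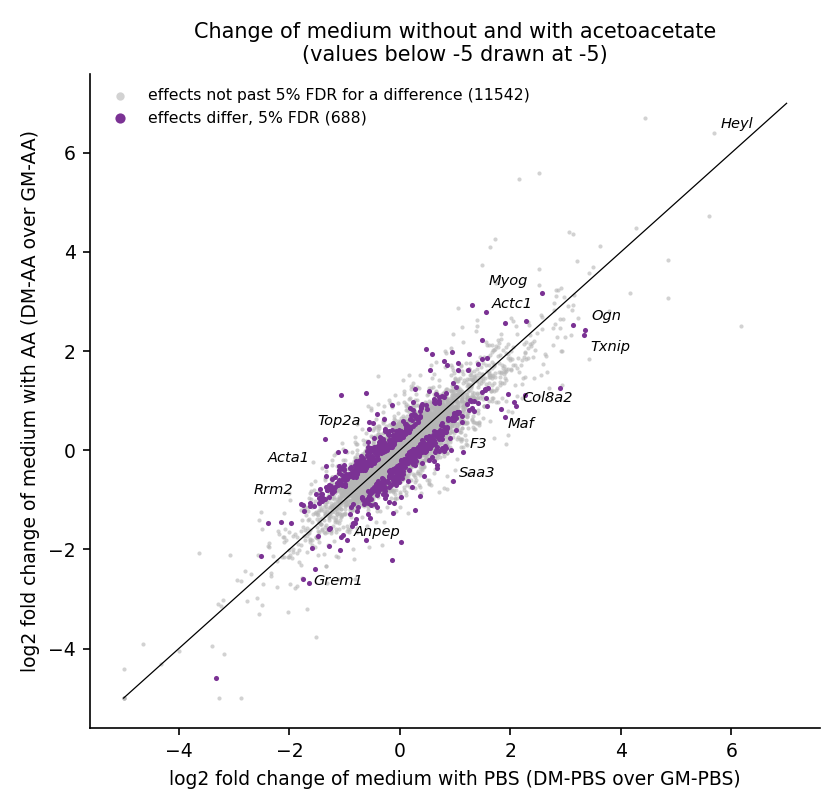
Fitted log2 fold change of differentiation over growth medium with PBS (horizontal) and with AA (vertical), 1 point per tested gene; purple points (688) differ between the 2 at 5% FDR, grey points (11542) do not pass and the line marks equal effects. Most genes lie near the line, F3 and Saa3 lie below it and Actc1 above it.

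Cell cycle genes were prominent among those whose medium effect differed. In the G2/M list 46 of 70 members differed, and in the replication list 30 of 58, against 5.63% of all tested genes. The median log2 change of the G2/M list was -0.091 with PBS and 0.26 with AA, and that of the replication list was -1.05 and -0.68. Top2a, the topoisomerase of mitosis, changed by -0.37 ± 0.044 with PBS and by 0.17 ± 0.044 with AA (difference -0.54 ± 0.062, adjusted p = 4.15e-08). Rrm2 changed by -1.62 ± 0.047 and -1.06 ± 0.046 (difference -0.57 ± 0.066, adjusted p = 4.83e-08). Outside the cycle, Grem1 fell by more with AA (-2.6 ± 0.052, difference 0.84 ± 0.07), and F3, tissue factor, rose with PBS by 1.15 ± 0.095 but not with AA (-0.045 ± 0.11, difference 1.19 ± 0.15). Inhbb, an activin subunit gene, was at 0.71 ± 0.047 with PBS and -0.0079 ± 0.046 with AA. Myog rose in both, by 2.58 ± 0.095 with PBS and 3.17 ± 0.083 with AA (difference -0.59 ± 0.14), Myod1 fell with PBS and was at -0.049 ± 0.049 with AA (difference -0.4 ± 0.069), and Heyl and Dll1 did not pass the test of a difference. Among sarcomere genes, Actc1 differed by -1.22 ± 0.22 and Myh3 by -0.97 ± 0.23, each with the more positive change with AA.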

How the data were processed

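RNA-seq of C2C12 cells gave 12 libraries, 3 in each of 4 groups, in a single table of read counts and RPKM per gene. Per the submitters' processing notes, the authors used BWA 0.5.9-r16 and mm9; the counting tool, the strand and the handling of multiple matches have no entry there. The deposited counts were tested as they stand; the deposited RPKM values served only for levels per length. Counts were fitted over all 12 libraries with edgeR 4.0.16 in R 4.3.3 (filterByExpr, TMM, 4 group means, robust glmQLFit, two-sided glmQLFTest, Benjamini-Hochberg adjustment, threshold 0.05). The SE is the absolute log2 change over the square root of F. DESeq2 1.42.0, limma-voom (limma 3.58.1), other scalings, filters, a GC and length correction, a replicate block and each library left out were alternatives. The scripts were tested on simulated data. Exon overlap, GC content and promoter windows came from GRCm38.p6 tables by symbol, and motifs were searched on both strands.

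The genes named are, by fixed rules, the largest changes by fold and by CPM, leading and most changed list members, transcription factors, genes without reads in a medium and genes whose effect differed with AA; Mcm6, shown for its promoter, was chosen after its values were seen. Members and the 58 lists were chosen with earlier results of these data known, so no test of a list was made. Results of a few genes are not reported here.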

Additional observations from a re-analysis of the deposited data

Results flagged for a closer look

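The effect of the medium differed between cells with PBS and cells with AA, by edgeR's test of the difference between both effects, for 83 of the genes named in the report. Each value below is the log2 change with PBS minus that with AA, so that a negative value is a more positive change with AA. Groups of 3 libraries are too small for the test of an outlying sample, which was not run.

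Cell cycle and growth regulator genes with a value below 0 were Top2a at -0.54, Rrm2 at -0.57, Cdc6 at -0.68, Mcm2 at -0.51, Mcm6 at -0.43 and Clspn at -0.67. Also below 0 were Ccne1 at -0.64, Ccne2 at -0.9, Cdk1 at -0.5, Cdca5 at -0.55, Smc2 at -0.48 and Aurkb at -0.54. Also below 0 were Aurka at -0.39, Plk1 at -0.33, Mki67 at -0.31, Mybl2 at -0.51, E2f2 at -0.57 and Rbl1 at -0.39. Also below 0 were Tk1 at -0.29, Tcf19 at -0.52, Ezh2 at -0.5, Cdkn1a at -0.25 and Gadd45g at -0.74.

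Muscle factors and contractile genes with a value below 0 were Myog at -0.59, Myod1 at -0.4, Mef2a at -0.33, Tead4 at -0.53, Id2 at -0.71 and Actc1 at -1.22. Also below 0 were Acta1 at -1.02, Myh3 at -0.97 and Tmem8c at -1.01. Of this group, Myf5 at 0.37, Tcf4 at 0.26, Synpo2l at 0.34, Myl9 at 0.28 and Zyx at 0.29 were above 0.

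Matrix, adhesion and secreted factor genes with a value below 0 were Lrrc17 at -0.32, Tgm2 at -0.65 and Smad3 at -0.24. Of this group, Grem1 at 0.84, Inhbb at 0.72, Ogn at 0.94, Prelp at 1.15, Thbs1 at 0.55 and Col3a1 at 0.29 were above 0. Also above 0 were Fn1 at 0.24, Lox at 0.25, Mmp2 at 0.24, Nid2 at 0.34, Spp1 at 0.37 and Igfbp4 at 0.51. Also above 0 were Igfbp5 at 0.35, C1qtnf3 at 0.62, F3 at 1.19, Ctgf at 0.38, Fzd1 at 0.26 and Pdgfrb at 0.22. Epha1 was at 0.82.

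Lipid, glucose and stress genes with a value below 0 were Mthfd1l at -0.34, P4hb at -0.24 and Per3 at -0.37. Of this group, Aacs at 0.28, Acsl3 at 0.23, Elovl6 at 0.36, Fasn at 0.23, Idi1 at 0.46 and Lss at 0.44 were above 0. Also above 0 were Plin4 at 0.94, Txnip at 1.0 and Gabarapl1 at 0.25.

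Other factors, immune and imprinted genes with a value below 0 were Csf2rb at -0.38, Egr1 at -0.25, Snai1 at -0.49, Zeb1 at -0.27 and Tubb3 at -0.3. Of this group, Maf at 1.02, Saa3 at 1.58, Cxcl5 at 0.83, Cebpd at 0.87, Snai2 at 0.31 and Peg3 at 0.4 were above 0. Zim1 was at 0.69.

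Of the 83 genes, 51 kept the call whichever of the 12 libraries was left out and 32 lost it without at least 1 of them. For each of the 32, the brackets give how many libraries ended the call when left out alone and the highest adjusted p of edgeR's test so reached. These were Aacs (5, up to 0.113 without GM-AA 3), Acsl3 (8, up to 0.0914 without GM-PBS 1), Acta1 (8, up to 0.0955 without DM-PBS 1), Ccne2 (2, up to 0.0608 without DM-PBS 1), Cdkn1a (1, up to 0.072 without GM-AA 2), Csf2rb (8, up to 0.106 without DM-AA 3) and Egr1 (5, up to 0.0843 without DM-PBS 3). Next came Fasn (8, up to 0.141 without GM-PBS 2), Fn1 (4, up to 0.108 without GM-AA 2), Fzd1 (6, up to 0.113 without GM-AA 3), Gabarapl1 (1, up to 0.0689 without DM-AA 2), Idi1 (9, up to 0.126 without DM-AA 2), Lox (1, up to 0.0876 without DM-AA 3) and Mef2a (6, up to 0.0803 without DM-PBS 3). Then followed Mki67 (2, up to 0.0648 without DM-AA 3), Mmp2 (8, up to 0.196 without GM-AA 2), Mthfd1l (1, up to 0.0507 without DM-PBS 2), Myf5 (2, up to 0.0895 without GM-AA 3), Myl9 (4, up to 0.133 without GM-PBS 3) and P4hb (4, up to 0.0625 without DM-AA 3). Others were Pdgfrb (7, up to 0.121 without GM-AA 2), Peg3 (6, up to 0.0872 without GM-AA 3), Per3 (7, up to 0.0899 without GM-PBS 1), Plk1 (2, up to 0.069 without GM-AA 1), Prelp (3, up to 0.095 without GM-AA 3), Smad3 (3, up to 0.0749 without GM-AA 1) and Synpo2l (9, up to 0.144 without GM-AA 3). The rest were Tcf4 (4, up to 0.0949 without DM-AA 1), Tead4 (7, up to 0.247 without DM-AA 2), Tgm2 (3, up to 0.0837 without GM-PBS 2), Tk1 (8, up to 0.113 without DM-AA 1) and Zeb1 (1, up to 0.0725 without GM-PBS 3).

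Under the other alternatives, which keep all 12 libraries, 12 of the 83 lost the call in at least 1 setting. Mmp2 and Tead4 lost it in 4 settings each and Peg3 and Synpo2l in 3. Aacs, Csf2rb, Fasn, Idi1, Per3 and Tk1 lost it with DESeq2 alone, Acta1 with limma-voom alone and Tgm2 with the GC and length trend removed alone.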

How the results depend on the processing

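All calls rest on 7959519 to 9893564 assigned reads a library, and small differences of genes with few reads may not be detectable at this depth. Of the 6652 calls, 5732 (DESeq2) to 6638 were kept under the 11 alternatives and with each library left out, and 0 were called in the opposite direction. The counts ran from 2786 to 3587 higher and from 2957 to 3609 lower. Of 340 named genes 312 were called, 309 of them under every alternative, 3 (Rb1, S100a4 and Scap) lost the call in some, none reversed, and 6 of 28 not called passed in some. The cause of the changes below was not tested.

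A stricter filter, which tests fewer genes, left 297 genes at least 2-fold higher. With DESeq2, 4 sarcomere genes were lower, 4 LXR genes higher, 3 glycolysis genes higher and 1 retinoid gene lower. With the RPKM divisor as library size 4 sarcomere genes and 1 retinoid gene were lower. With limma-voom 2 LXR genes and 1 retinoid gene were lower. With the GC and length trend removed, with or without the block, 7 IGF, 3 LXR, 2 Hedgehog and 2 smooth muscle genes were lower, and without the block 1 imprinted gene, as in the 6 PBS libraries alone (1). With no filter, which tests more genes, 2 cornified, 1 cardiac, 1 immune, 1 endothelial and 4 neural genes were higher, and 1 endothelial and 1 retinoid gene lower. The stricter filter left 5 LXR genes higher, 1 retinoid gene lower and 0 immune genes lower because none had enough reads to be tested, and upper-quartile scaling left 1 retinoid gene lower.

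With each of the 6 PBS libraries left out in turn, 4 to 6 sarcomere, 1 to 2 LXR, 6 to 10 TCA cycle, 2 to 5 interferon, 1 retinoid, 0 to 1 imprinted and 1 to 2 cardiac genes were lower, and 4 to 7 LXR, 3 to 6 glycolysis and 1 to 2 cornified genes were higher.

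Same-numbered libraries did not deviate together (Pearson coefficients of 0.0103, -0.00263 and -0.000389 over genes), so no pairing by number was seen. Deviations of 3 libraries a group cannot settle whether same-numbered libraries were handled together. With a replicate block 3271 genes were higher and 3310 lower, 6551 of the main calls were kept, and 1 retinoid gene was lower. No PBS library correlated best with the library of its own number in the other medium.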
